A study of Mus musculus with 6 samples.

Results

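The 7 genes described here are the mouse peroxiredoxins Prdx1, Prdx2, Prdx3, Prdx4, Prdx5 and Prdx6 and the thioredoxin gene Txn1. They were chosen by Ensembl gene identifier (ID) as a gene family, with results of the same YTHDF2 immunoprecipitation (IP) against Input comparison already known, and all 7 were found among the 54446 gene IDs of each library. Every value of IP against Input below is therefore a description of these libraries and carries no test. The IP group holds 3 libraries of RNA from precipitation with an antibody against the YTHDF2 protein. The Input group holds 3 libraries of total RNA made from 10% of the lysate. YTHDF2 is a cytoplasmic protein that binds mRNA carrying N6-methyladenosine and promotes its decay. Both groups came from wild-type (WT) mice with subcutaneous tumours of B16F10, a mouse melanoma line, from which live CD45+ CD4+ regulatory T (Treg) cells carrying a Foxp3-GFP reporter were sorted. Age is not given in the sources used here, nor is it stated whether replicates 1 to 3 came from separate animals or pools, so the spread between replicates may be technical. No precipitation with a control antibody or from cells without YTHDF2 was analysed here. A lower value thus means fewer reads in the IP relative to other genes, and not a measured absence of binding.

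Peroxiredoxins are abundant peroxidases that reduce hydrogen peroxide through a reactive cysteine. In the typical 2-Cys enzymes Prdx1 to Prdx4 the oxidised cysteine forms a disulfide with a partner subunit, in Prdx5 the disulfide forms within the subunit, and Prdx6 is the 1-Cys enzyme, which does not rely on thioredoxin. Thioredoxin, the product of Txn1, reduces the disulfide of the 2-Cys enzymes in the cytosol and is itself restored by thioredoxin reductase with NADPH. Prdx1, Prdx2 and Prdx6 act mainly in the cytosol, Prdx3 in mitochondria, Prdx4 in the endoplasmic reticulum, and Prdx5 in several compartments including mitochondria and peroxisomes. Human Treg cells have been described to express and release thioredoxin and to tolerate oxidative stress better than conventional T cells.

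Gene-assigned reads numbered 6847731 to 8465453 per IP library and 10029733 to 14704617 per Input library. IP replicate 3 stood apart from the other IP libraries, with a read on 14200 gene IDs, against 18501 and 19991 in the other IP libraries and 26250 to 33344 in the Input libraries. Levels are CPM (reads per 1000000 gene-assigned reads), scaled by TMM factors, which correct for differences in library composition. They are not divided by transcript length, so levels of different genes are not compared. The files pair no ID with a name, and the RefSeq gene table used here, with 49997 rows, holds 0 Ensembl IDs. The names of the 7 genes came with the choice of IDs, and the lists of thioredoxin partners, glutathione and NRF2 genes, Treg markers and markers of other cell types were not analysed here. In such bulk libraries fewer cells of a type and less RNA per cell cannot be told apart.

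All 7 symbols matched 1 gene each in the RefSeq annotation of GRCm38.p6, the assembly of the mm10 build named in the submitters' processing notes. Prdx1 and Txn1 lie on chromosome 4, at chr4:116685599-116700000 and chr4:57943373-57956411. Prdx3 and Prdx5 lie on chromosome 19, at chr19:60864066-60874538 and chr19:6906697-6910106. Prdx2 lies at chr8:84969622-84974811, Prdx4 at chrX:155323918-155342272 and Prdx6 at chr1:161240112-161251210. The span of Prdx1 overlaps the annotated gene AV051173 and that of Prdx5 overlaps Trmt112, and the strand setting of the counting is not given in the sources used here, so reads of these pairs may not be fully separated. RefSeq also lists gene copies named for Prdx1 (Prdx1-ps), Prdx2 (Prdx2-ps1 and Prdx2-ps2) and Prdx6 (Prdx6b and Prdx6-ps2). Counts of these 3 genes are uncertain to the extent that reads could align to a copy. Copies under other names were not searched for, so the same may hold for any of the 7 genes. Reads without a unique alignment made up 3.09% ± 0.242 of an IP file and 9.44% ± 0.244 of an Input file (SD, n = 3 each).

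The 250 bases before the RefSeq transcription start are printed for 3 of the 6 genes in the promoter table. Prdx1 and Txn1 are shown as genes known to be induced by the oxidative stress factor NRF2, and Prdx4 as the gene without an IP read. The promoter is not part of the RNA that was precipitated. Capitals mark matches on either strand to TGACNNNGC, the core of the antioxidant response element bound by NRF2, to TGANTCA, the AP-1 motif, and to TATAAA.
Prdx1, chr4:116685349-116685598, plus strand: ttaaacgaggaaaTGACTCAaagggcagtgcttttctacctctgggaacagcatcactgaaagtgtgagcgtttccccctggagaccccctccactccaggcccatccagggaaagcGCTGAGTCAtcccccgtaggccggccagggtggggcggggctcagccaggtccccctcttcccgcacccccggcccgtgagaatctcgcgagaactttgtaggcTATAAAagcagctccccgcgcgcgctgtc
Txn1, chr4:57956412-57956661, minus strand: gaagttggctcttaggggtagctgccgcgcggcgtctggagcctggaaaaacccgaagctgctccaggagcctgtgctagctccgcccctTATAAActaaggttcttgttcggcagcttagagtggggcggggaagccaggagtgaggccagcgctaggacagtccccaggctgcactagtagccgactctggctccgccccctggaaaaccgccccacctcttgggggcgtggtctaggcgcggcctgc
Prdx4, chrX:155338461-155338710, minus strand: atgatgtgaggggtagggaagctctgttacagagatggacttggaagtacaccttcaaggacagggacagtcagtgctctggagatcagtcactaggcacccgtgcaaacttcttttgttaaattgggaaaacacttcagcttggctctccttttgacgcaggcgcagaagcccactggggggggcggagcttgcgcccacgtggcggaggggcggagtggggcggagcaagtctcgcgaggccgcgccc
The Prdx1 window holds the antioxidant response element core from 133 to 125 bases before the start, where it overlaps an AP-1 match at 131 to 125 bases. A further AP-1 match lies 237 to 231 bases before the start, and TATAAA lies 29 to 24 bases before it. In the Txn1 window only TATAAA was matched, 160 to 155 bases before the start, and the Prdx4 window, whose start lies inside the annotated span of the gene, holds none of the 3 motifs. Of the 6 promoters, 1 holds the response element core, 1 the AP-1 motif and 3 TATAAA, against 10.2%, 6.75% and 12.4% of the 32851 promoters of the same length in the table.

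**Figure D1:**
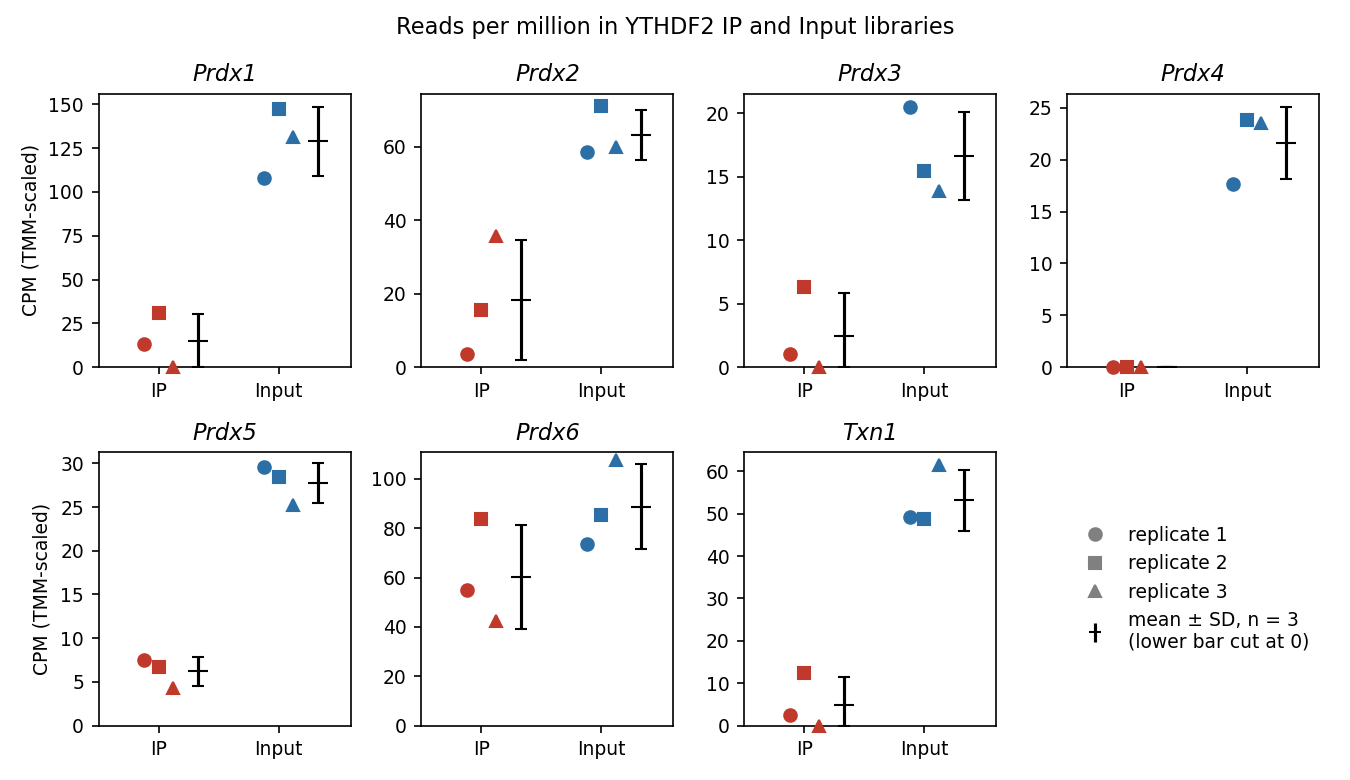
Level of each of the 7 genes, in TMM-scaled CPM (vertical axes, each starting at 0), in the 3 IP libraries (red) and the 3 Input libraries (blue), with point shapes for the replicate number and black bars for the mean ± SD (n = 3). Prdx6 is the 1 gene whose IP and Input points overlap, and Prdx4 is at 0 in every IP library.

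In the YTHDF2 IP, 6 of the 7 genes lay lower in every library than in any Input library, and Prdx6 overlapped. Over all 15615 tested genes, the IP lay below the Input without overlap for 23.7%, and the share was 31.0% of the 5626 genes whose mean Input level lay within the range of the 7 genes, 16.6 to 129 CPM. In the fit across all tested genes (edgeR's quasi-likelihood test, called at a Benjamini-Hochberg adjusted p under 0.05), 2 of the 7 genes, Prdx4 and Prdx5, were called depleted and 0 were called enriched. The background shares were 6.11% depleted and 4.33% enriched over all tested genes, and 7.73% depleted in the same range of Input level. Because the genes were chosen with this contrast known, nothing is read from these counts. The 7 genes had a median log2 fold change, IP over Input, of -2.76, also with Prdx4 at its bound. All tested genes had one of -0.12, and the 5626 genes in the same range of Input level had one of -0.22.

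Prdx1 (ENSMUSG00000028691.12), a cytosolic 2-Cys enzyme that also acts as a chaperone, had 13.2, 30.7 and 0 CPM in IP replicates 1, 2 and 3, against 108, 147 and 131 CPM in Input replicates 1, 2 and 3. Its means were 14.7 ± 15.4 CPM in the IP and 129 ± 19.8 CPM in the Input (SD, n = 3 each). It had more Input reads than any of the other 6 genes, 1411 to 1531 per library, and the IP libraries held 114, 214 and 0. At its Input level, 1096 reads would have been counted in IP replicate 3, where none was found. The fitted log2 fold change was -3.14 ± 1.08 (SE), and the gene was not called. Without IP replicate 3 it was -2.59 and was called depleted.

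Prdx2 (ENSMUSG00000005161.15), the other mainly cytosolic typical 2-Cys enzyme, had 3.48, 15.5 and 35.7 CPM in IP replicates 1 to 3, against 58.5, 71.1 and 60.0 CPM in Input replicates 1 to 3. It was highest in IP replicate 3, the library in which Prdx1 had no read, and it had the widest relative spread of the 3 genes with reads in every IP library, at 30, 108 and 304 reads. The means were 18.2 ± 16.3 CPM in the IP and 63.2 ± 6.89 CPM in the Input (SD, n = 3 each). The log2 fold change was -1.79 ± 0.67 (SE) and was not called. Without IP replicate 3 it was -2.79 and was called.

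Prdx3 (ENSMUSG00000024997.7), the mitochondrial 2-Cys enzyme, had the fewest Input reads of the set in sum, 598, with 288, 148 and 162 in replicates 1 to 3. Its level was 1.04, 6.32 and 0 CPM in IP replicates 1 to 3 and 20.5, 15.5 and 13.9 CPM in Input replicates 1 to 3. These came from 9, 44 and 0 IP reads. The log2 fold change was -2.76 ± 1.40 (SE), and the gene was not called, with or without IP replicate 3. The groups did not overlap, while the IP libraries covered a range from 0% to 38.0% of the mean Input level.

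Prdx4 (ENSMUSG00000025289.15), the 2-Cys enzyme of the endoplasmic reticulum, had no read in any of the 3 IP libraries. The Input libraries held 247, 228 and 274 reads, or 17.6, 23.8 and 23.5 CPM. At the mean Input level of 21.6 ± 3.48 CPM (SD, n = 3), the IP libraries would have held 187, 151 and 184 reads. With the IP set at a floor of 3 reads in each library, Prdx4 was at least 57.4-fold lower there, a log2 bound of -5.84 that covers counting error only. Of the 5626 genes in the same range of Input level, 5 had no read in all 3 IP libraries, or 0.0889%, and Prdx4 is 1 of these. It was called depleted in the fit on all libraries and in all 14 alternatives that gave it a value. These refit the same counts, without an IP read, and are not separate evidence. The alternative that required 1 CPM in all libraries left the gene out because of its IP counts.

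Prdx5 (ENSMUSG00000024953.16), the atypical 2-Cys enzyme, had closely spaced levels in both groups, with 7.53, 6.75 and 4.35 CPM in IP replicates 1 to 3, against 29.6, 28.4 and 25.2 CPM in Input replicates 1 to 3. Its means were 6.21 ± 1.66 CPM in the IP and 27.7 ± 2.27 CPM in the Input (SD, n = 3 each). The log2 fold change was -2.16 ± 0.57 (SE), and the gene was called depleted. This call was made in 7 of 15 alternatives, while the log2 fold change ranged from -2.69 to -1.96 over them. It was lost with each library other than IP replicate 3 left out, and with a replicate block.

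Prdx6 (ENSMUSG00000026701.15), the 1-Cys enzyme, which also has phospholipase activity, had 54.8, 83.6 and 42.3 CPM in IP replicates 1 to 3, against 73.5, 85.4 and 108 CPM in Input replicates 1 to 3. The groups overlapped, since IP replicate 2 lay above Input replicate 1. The means were 60.2 ± 21.2 CPM in the IP and 88.8 ± 17.3 CPM in the Input (SD, n = 3 each), and the log2 fold change of -0.56 ± 0.31 (SE) was not called. Of all tested genes, 37.0% had a lower log2 fold change. The value depends on the scaling: it was -0.36 with upper quartile factors, and -1.09 and called depleted with library sizes from all reads, under which the median of all tested genes moved by -0.53.

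Txn1 (ENSMUSG00000028367.5) encodes the cytosolic thioredoxin, which reduces the 2-Cys enzymes in the cytosol. It had 2.55, 12.4 and 0 CPM in IP replicates 1 to 3, against 49.2, 48.8 and 61.5 CPM in Input replicates 1 to 3. The IP counts were 22, 86 and 0 reads, and the Input counts were 690, 467 and 717. Its means were 4.97 ± 6.52 CPM in the IP and 53.2 ± 7.21 CPM in the Input (SD, n = 3 each). The log2 fold change was -3.43 ± 1.17 (SE) and was not called. Without IP replicate 3 it was -2.89 and was called depleted.

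**Figure D2:**
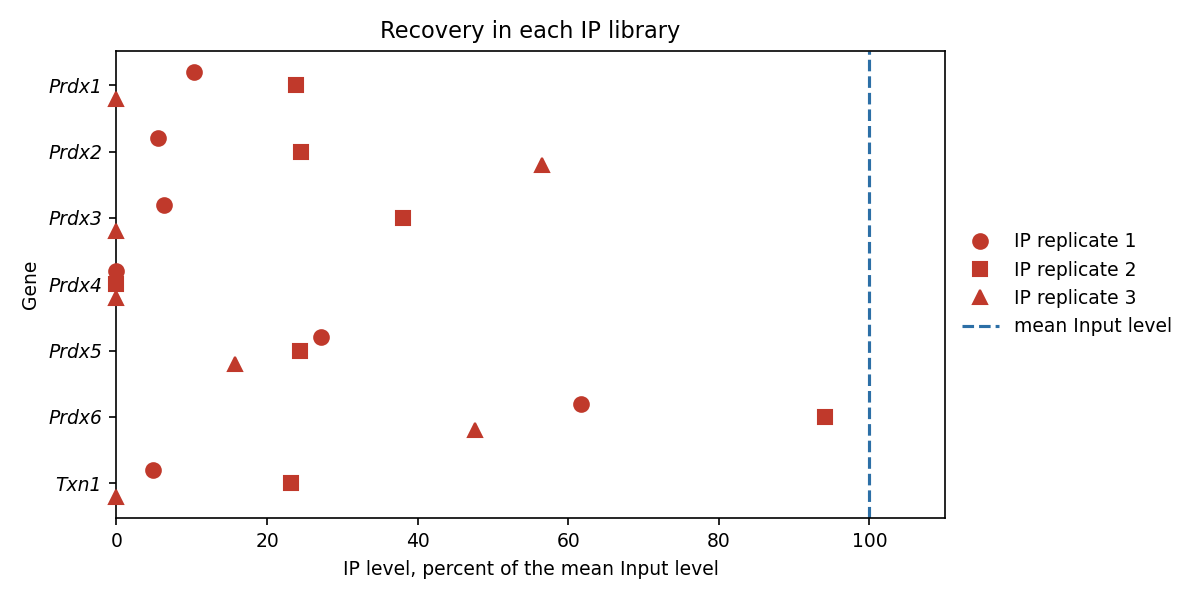
Level of each gene (rows) in each IP library as a percentage of its mean Input level (horizontal axis), with point shapes for the 3 IP replicates and the Input mean as a dashed line. Prdx6 lies from 47.6% to 94.2%, the other 6 genes lie at or below 56.5%, and 4 genes are at 0 in IP replicate 3.

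The IP libraries did not move as one. IP replicate 2 held the highest IP level of Prdx1, Prdx3, Prdx6 and Txn1, at 23.9%, 38.0%, 94.2% and 23.2% of the mean Input level. IP replicate 3 was highest for Prdx2, at 56.5%, and IP replicate 1 for Prdx5, at 27.2%. Zero reads were listed for 4 of the 7 genes in at least 1 IP library, and each of these 4 was at 0 in IP replicate 3. Among the genes in the same range of Input level, 7.93% had 0 reads in at least 1 IP library and 7.29% in IP replicate 3. The genes at 0 in IP replicate 3 had 9 to 114 reads in IP replicate 1 and 44 to 214 in replicate 2, apart from Prdx4, which had none. Whether the low number of gene IDs in IP replicate 3 had a part in these zeros was not tested.

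Relative to the mean, the spread between replicates was wider in the IP than in the Input for each of the 6 genes with IP reads, while the SD itself was smaller in the IP for 4 of them. The coefficient of variation ran from 26.7% for Prdx5 to 138% for Prdx3 in the IP, and from 8.20% for Prdx5 to 20.9% for Prdx3 in the Input over all 7 genes. In the Input, which did not enter the choice by itself, the median over the 7 genes was 15.4%, beside 16.1% for the 5626 genes in the same range of level. In the IP it was 97.3% over the 6 genes with a value, and 40.3% for the genes in range, which were taken by Input level and not by IP level. These medians were 73.0% and 25.8% without IP replicate 3. The coefficient of variation of Prdx1 was then 56.4% in place of 105%, and that of Prdx5 was 7.72%, below its Input value, so 5 of the 6 genes kept the wider relative spread.

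**Figure D3:**
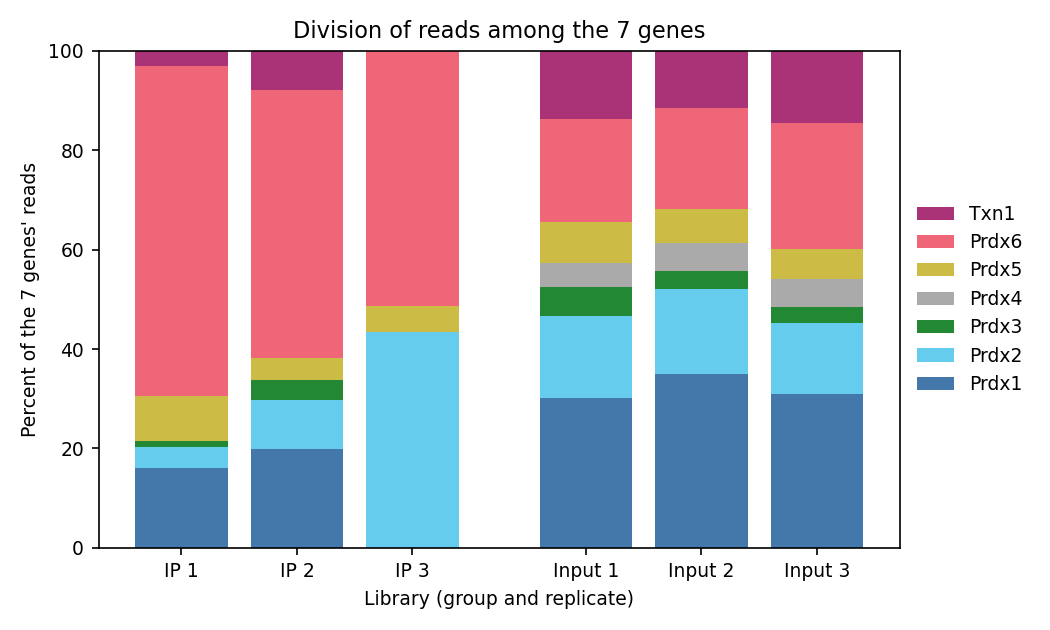
Share of each gene among the reads of all 7 genes (vertical axis, percent) in each of the 3 IP and 3 Input libraries (bars). Prdx6 takes at least 51.4% of every IP bar and at most 25.4% of an Input bar, and IP replicate 3 holds reads of Prdx2, Prdx5 and Prdx6 alone.

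Shares among the 7 genes' own reads do not depend on library size or scaling. They add up to the whole in each library. A share can therefore rise through a rise of the gene itself or a fall of other genes of the set. Prdx6 took 66.3% (95% Wilson interval 62.8% to 69.7%) of these reads in IP replicate 1. Its share was 53.8% (interval 50.9% to 56.8%) in replicate 2 of the IP and 51.4% (interval 47.7% to 55.0%) in replicate 3. Input replicates 1, 2 and 3 gave it 20.6% (interval 19.5% to 21.7%), 20.3% (interval 19.1% to 21.6%) and 25.4% (interval 24.2% to 26.7%). The means were 57.2% ± 8.03 in the IP and 22.1% ± 2.87 in the Input (SD, n = 3 each), and the groups did not overlap. This is not a gain of Prdx6 in the IP, where its mean level was 67.8% of that in the Input and the levels overlapped. The intervals cover counting error within 1 library only, and not the spread between replicates. They may be too narrow even for that, since the reads carry no molecular identifiers. Txn1 took 3.68% ± 4.01 in the IP and 13.3% ± 1.53 in the Input (SD, n = 3 each), again without overlap. Prdx1 took 11.9% ± 10.5 and Prdx2 19.2% ± 21.1 in the IP, against 32.1% ± 2.58 and 15.8% ± 1.45 in the Input (SD, n = 3 each). The Prdx2 share of 43.4% in IP replicate 3 lay above every Input library, and its shares of 4.21% and 9.99% in the other IP libraries lay below every one. Prdx5 took 6.25% ± 2.53 in the IP and 7.01% ± 1.19 in the Input (SD, n = 3 each), a difference smaller than the spread between replicates. Without IP replicate 3, the mean IP shares were 60.1% for Prdx6, 5.52% for Txn1, 17.9% for Prdx1, 7.10% for Prdx2 and 6.73% for Prdx5, so the Prdx2 mean lay below the Input in place of above it.

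Together the 7 genes took 0.00842%, 0.0158% and 0.00903% of gene-assigned reads in IP replicates 1 to 3, against 0.0340%, 0.0401% and 0.0409% in Input replicates 1 to 3. The means were 0.0111% ± 0.00409 in the IP and 0.0384% ± 0.00377 in the Input (SD, n = 3 each). Every IP library lay below every Input library, and the ratio of the means was 0.289. Without Prdx1, the gene with the most Input reads, the ratio was 0.369, and as a share of all reads in a file it was 0.185. Without IP replicate 3, an alternative added after the data were seen, it was 0.316.

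**Figure D4:**
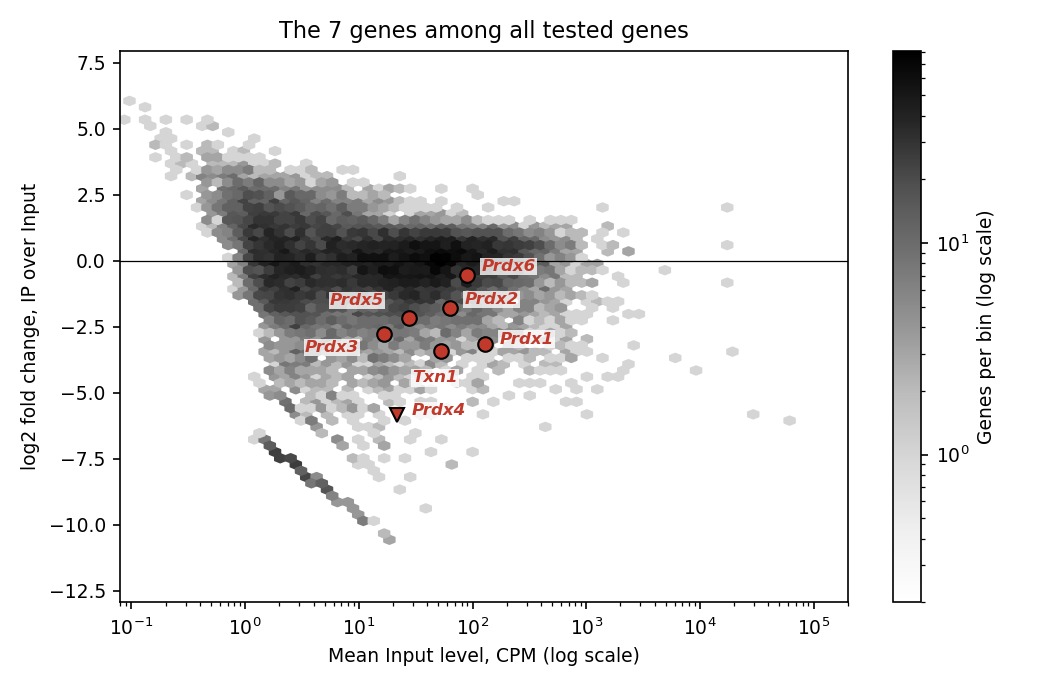
Log2 fold change of IP over Input (vertical axis) against mean Input level in CPM (horizontal log axis) for the other tested genes with an Input read, as bins shaded by the number of genes, with the 7 genes in red. Prdx4 is drawn at its bound of -5.84 (triangle), while other genes without an IP read stand at fitted values in the diagonal band at the lower left, and Prdx6 at -0.56 is the closest of the 7 to 0.

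In the ranking of all tested genes by fitted log2 fold change, 5.12% lay below Txn1, 6.00% below Prdx1, 7.44% below Prdx3, 10.8% below Prdx5 and 14.4% below Prdx2. Without IP replicate 3, in a fit that tested 19027 genes, these shares were 12.7%, 14.1%, 16.0%, 17.8% and 13.1% in the same order of genes. All 7 genes passed the filter on low counts. Of these, 3 (Prdx2, Prdx5 and Prdx6) would have passed on the IP libraries alone. The other 4 passed through their Input counts, so the filter itself kept them for a high Input level. The gene closest to Prdx6 over the 6 libraries was ENSMUSG00000031545.6, at a root mean square distance of 0.158 in log2 CPM. The next was ENSMUSG00000111546.1, at 0.190. Neither ID is named here.

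**Figure D5:**
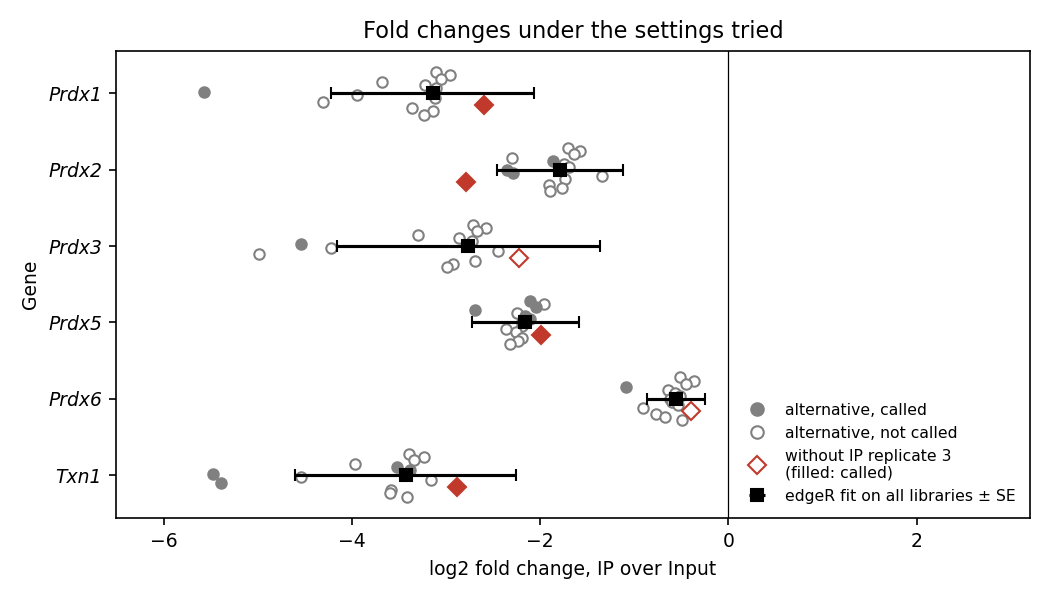
Log2 fold change of IP over Input (horizontal axis) for the 6 genes with IP reads (rows), with black squares for the fit on all libraries ± SE, circles for the alternative settings (filled where the gene was called depleted) and diamonds for the fit without IP replicate 3. All points lie below 0, and leaving out IP replicate 3 moves Prdx2 to -2.79 and Prdx1 to -2.59.

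The fold changes of the 7 genes were below 0 in every alternative that gave a value, while the number called depended on the setting. Leaving out IP replicate 3 gave 5 genes called depleted, namely Prdx1, Prdx2, Prdx4, Prdx5 and Txn1, where 8.73% of all genes tested in that fit were called depleted. In limma voom, Prdx6 was the 1 gene of the 7 not called, and the share of all tested genes called depleted was 11.1%. Prdx6 was called under 1 of its 15 alternatives, library sizes from all reads, and Prdx3 under 1 of 14, limma voom.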

How the data were processed

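RNA from YTHDF2 IP and Input was measured in 3 libraries each, with groups and replicate numbers taken from the titles. Each deposited file holds raw counts of reads per Ensembl gene ID, made by the authors. The submitters' processing notes name Trimmomatic 0.39, HISAT2 2.1.0, HTSeq, DESeq2 and the mm10 build, and give no role or order of the tools. No annotation release, strand setting or duplicate handling was given in the sources used here. Per the labels' protocols, beads were incubated for 4 hours and washed 6 times, and a stranded total RNA kit was used. The 92 spike-in IDs and 5 summary categories stayed out of library sizes. They held 74.7% to 75.8% of the reads of an IP file and 60.0% to 62.4% of those of an Input file.

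Counts were fitted with edgeR 4.0.16 in R 4.3.3 (filterByExpr, TMM, robust quasi-likelihood F-test, group as the only term, Benjamini-Hochberg over 15615 genes) after a check on simulated data. The simulation gave every gene the same spread setting in both groups. It cannot show how the fit behaves for genes as variable in the IP as these. DESeq2 1.42.0 and limma 3.58.1 were alternatives, with other size factors, other filters, a replicate block and each library left out. The 7 genes, the lists and the rule for named genes (all 7 genes, and the genes nearest to a member in log2 CPM) were chosen with earlier results of these data known. The labels do not say whether same-numbered IP and Input libraries share a lysate, so the main fit did not pair them. Same-numbered libraries correlated at 0.115, 0.0333 and 0.0245 in their deviations from group means. These values cannot decide whether a lysate was shared, since differently numbered libraries were not compared.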

Additional observations from a re-analysis of the deposited data

Results flagged for a closer look

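Reads in no annotated feature lie outside the gene counts and were higher in the IP: the mean share was 71.7% in IP files and 50.4% in Input files. They enter the values here through the library sizes from all reads, under which Prdx6 was called depleted, and through the summed share of all reads in a file.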

How the results depend on the processing

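No log2 fold change of the 7 genes changed direction, and 0 genes were called enriched in any alternative. Prdx4 was called depleted in all 14 alternatives that gave it a value, which refit the same counts without an IP read. Against 2 of 7 genes (6.11% of all tested), 1 was called depleted with upper quartile factors (5.13% of all tested) and 1 when 1 CPM was required in all libraries (12.6%), which tests 3 of the 7, while limma voom called 6 (11.1%). Leaving out 1 library gave 1 to 5 (3.26% to 8.73% of all tested). In limma voom, Prdx1 (-5.58), Prdx2 (-2.35), Prdx3 (-4.54) and Txn1 (-5.48) gained a call, and the median over the 7 genes was -4.54. Without a filter, Prdx2 (-1.86) and Txn1 (-3.52) gained a call and Prdx5 (-2.24) lost it. With upper quartile factors Prdx5 (-1.96) lost its call. With a replicate block Prdx2 (-2.29) gained a call and Prdx5 (-2.19) lost it, and no other call of the 7 changed. Txn1 was called by DESeq2 (-3.38) and Prdx6 with library sizes from all reads (-1.09). With 1 library left out, log2 fold changes ranged from -4.30 to -2.59 for Prdx1, from -2.79 to -1.35 for Prdx2, from -4.99 to -2.23 for Prdx3, from -2.37 to -1.99 for Prdx5, from -0.90 to -0.39 for Prdx6 and from -5.39 to -2.89 for Txn1, which was also called without IP replicate 2. The median over the 7 genes ranged from -4.30 to -2.44 and, in alternatives added after the data were seen, the ratio of summed shares from 0.228 to 0.324. Also added then, 6 to 7 genes lay below the Input without overlap with 1 library left out, where 26.3% to 32.9% of all tested genes did, as did 33.3% to 37.9% of those in the 7 genes' range of Input level. The causes were not tested. Against 676 enriched and 954 depleted genes in all, DESeq2 called 1394 and 2101, and library sizes from all reads 160 and 1958. Enriched genes numbered 1081 with upper quartile factors and 1017 with the 1 CPM filter, and limma voom called 1737 depleted. With 1 library left out, 188 to 1000 genes were enriched and 563 to 1661 depleted. The median of all tested genes moved by 0.20 with upper quartile factors, 0.12 with total counts, -0.53 with library sizes from all reads, -0.45 in limma voom and -0.38 with the replicate block. The smallest summed Input count is that of Prdx3, 598 reads.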
